A study of Mus musculus with 3 samples.

Results

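The cytochrome P450 genes described here were the 70 genes, read by 102 probes, whose name on the array design had the form Cyp, number, letter, number (Cyp2a5, Cyp3a13 and the like), out of 27961 genes and 41534 gene spots in all. Membership was set by the name alone and used no measured value, although the P450 genes were taken up as a group with earlier results of these data known. They were grouped by subfamily. RNA of 3 tissue pairs from mice was compared on 2-colour Agilent arrays, 1 array per organ, with 1 RNA labelled Cy5 (red) and its partner labelled Cy3 (green). By the dye labels, the liver pair was a liver tumour (Cy3) and nontumour liver (Cy5) of 1 AID Tg mouse, and the stomach pair was a gastric tumour (Cy3) and nontumour stomach (Cy5) of 1 AID Tg mouse. The lung pair was a lung tumour of an AID Tg mouse (Cy3) and normal lung of a Wt (wild-type) mouse (Cy5). AID Tg mice are transgenic for AID, activation-induced cytidine deaminase, the enzyme that deaminates cytidines in antibody genes of B cells. The promoter that drives the transgene, the age and the sex of the mice are not given in the sources used here. Both RNAs of the liver and stomach pairs therefore carried the transgene, whereas in the lung pair only the tumour did.

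The direction of every ratio is not settled. The authors' deposited table lists the Cy5-high spots of each organ under headings for genes up in the tumour, and the Cy3-high spots under headings for genes down, which makes Cy5 the likely tumour channel. The dye labels name Cy3 as the tumour channel, and by them every sign below turns. For this reason each value names its channel, and ratios are log2 of Cy5 over Cy3, where 1 is a 2-fold higher Cy5 intensity and -1 a 2-fold higher Cy3 intensity. With 1 array per organ and no dye swap there was no replicate, no test between tissues was possible, and an effect of the dye or of the array cannot be told apart from a difference between tissues. The error given with a gene is the SD between its probes or, where only 1 probe reads it, the error that the scanner software gave its ratio (here as log2), and covers measurement only. A gene is called listed where the authors' deposited table holds at least 1 of its spots.

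P450 enzymes are haem proteins of the endoplasmic reticulum and mitochondria that insert an oxygen atom into their substrates with electrons from P450 reductase or adrenodoxin. Members of the families Cyp1, Cyp2 and Cyp3 oxidise drugs, carcinogens and steroids, those of Cyp2c, Cyp2j and Cyp4 act on arachidonic acid and other fatty acids, and the families from Cyp7 upward make bile acids and steroid hormones or turn over vitamin D and retinoic acid. The liver carries most of this chemistry, and lung and gut epithelia express sets of their own, such as Cyp2f2 in mouse club cells.

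On the liver array 101 of 102 P450 probes were well above background in at least 1 channel (100 in Cy5, 99 in Cy3), and on the stomach array 94 (93 in Cy5, 84 in Cy3). None was saturated or an outlier spot. This left 69 genes in liver and 67 in stomach: the Cyp1a1 probe, for the enzyme that is the best known target of the aryl hydrocarbon receptor, was above background in neither organ, and Cyp2c39 and both Cyp2j5 probes were not in stomach. Where a gene had several probes, they differed by a pooled SD of 0.22 in each organ, and the median scanner error was 0.26 in liver and 0.63 in stomach, where most P450 probes were dim. The lung pair is known here only through the spots that the authors' deposited table lists, which start at 2-fold. It held 22 of the 70 genes, and a gene outside the lists has no value here, which does not show that it was equal in both channels.

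In liver, most P450 genes differed little between the channels. The ratios of the 69 genes had a median of -0.09 and ran from 1.26 to -1.33, beside a median of 0.01 over all 25856 genes. Of the 69, 2 were at least 2-fold Cy5-high (Cyp2a5 and Cyp2a4, 2.90%, against 0.155% of all genes) and 1 was at least 2-fold Cy3-high (Cyp2f2, 1.45%, against 0.0696%). Cyp2a5 and Cyp2a4 are close relatives, and their probes may share signal. The authors' deposited table, whose liver and stomach lists hold spots that the scanner software called at a p-value up to 0.01, listed 3 of 70 as Cy5-high (4.29%, against 1.73% of all genes) and 9 as Cy3-high (12.9%, against 1.35%). Bright spots have a small scanner error and pass at smaller ratios, while the share of all genes includes dim ones. Of the 9, only Cyp2f2 was 2-fold. With median centring the 9 ran from -0.94 (Cyp2f2) to 0.15 (Cyp3a25), with Cyp17a1 at -0.05 and Cyp3a13 at -0.06. Ratios were above 0 for 24 genes and below 0 for 45, but centring the array on its median in place of loess turned this split to 42 above and 27 below, so a direction for the liver genes as a group is not given.

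In stomach the P450 median was -0.01, beside 0.0013 over all 25561 genes, and the genes ran from 1.17 to -2.68. At least 2-fold Cy5-high were 2 of 67 (Cyp2c65 and Cyp3a13, 2.99%, against 0.876% of all genes), and 1 was at least 2-fold Cy3-high (Cyp2f2, 1.49%, against 1.42%). Listed in the authors' deposited table were 6 of 70 as Cy5-high (8.57%, against 5.12%) and 2 as Cy3-high (2.86%, against 4.29%). Here 32 genes lay above 0 and 35 below, which became 40 and 27 with the scanner software's ratio and 39 and 28 with median centring. The share listed in the authors' deposited table for lung was the same in both channels, 11 of 70 each (15.7%), beside 6.78% of all genes in the Cy5-high list and 12.3% in the Cy3-high list. Over the organs, 29 of the 70 genes were 2-fold or listed at least once and 41 never. The share of all genes for this pooled count was not computed, so it is not read as high or low.

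**Figure D1:**
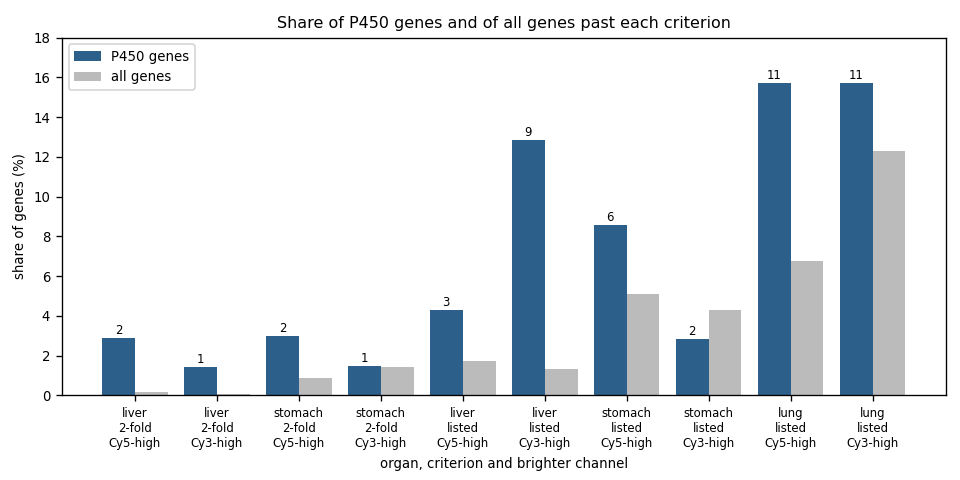
Share of the P450 genes (blue) and of all genes (grey), in percent, that were at least 2-fold or in the authors' deposited lists, by organ and brighter channel; the number over a blue bar counts P450 genes. The widest gap between the bars is in the liver Cy3-high list, 12.9% of P450 genes beside 1.35% of all genes. That list goes by the scanner software's p-value, which bright spots pass at smaller ratios, and of its P450 genes only Cyp2f2 was 2-fold.

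**Figure D2:**
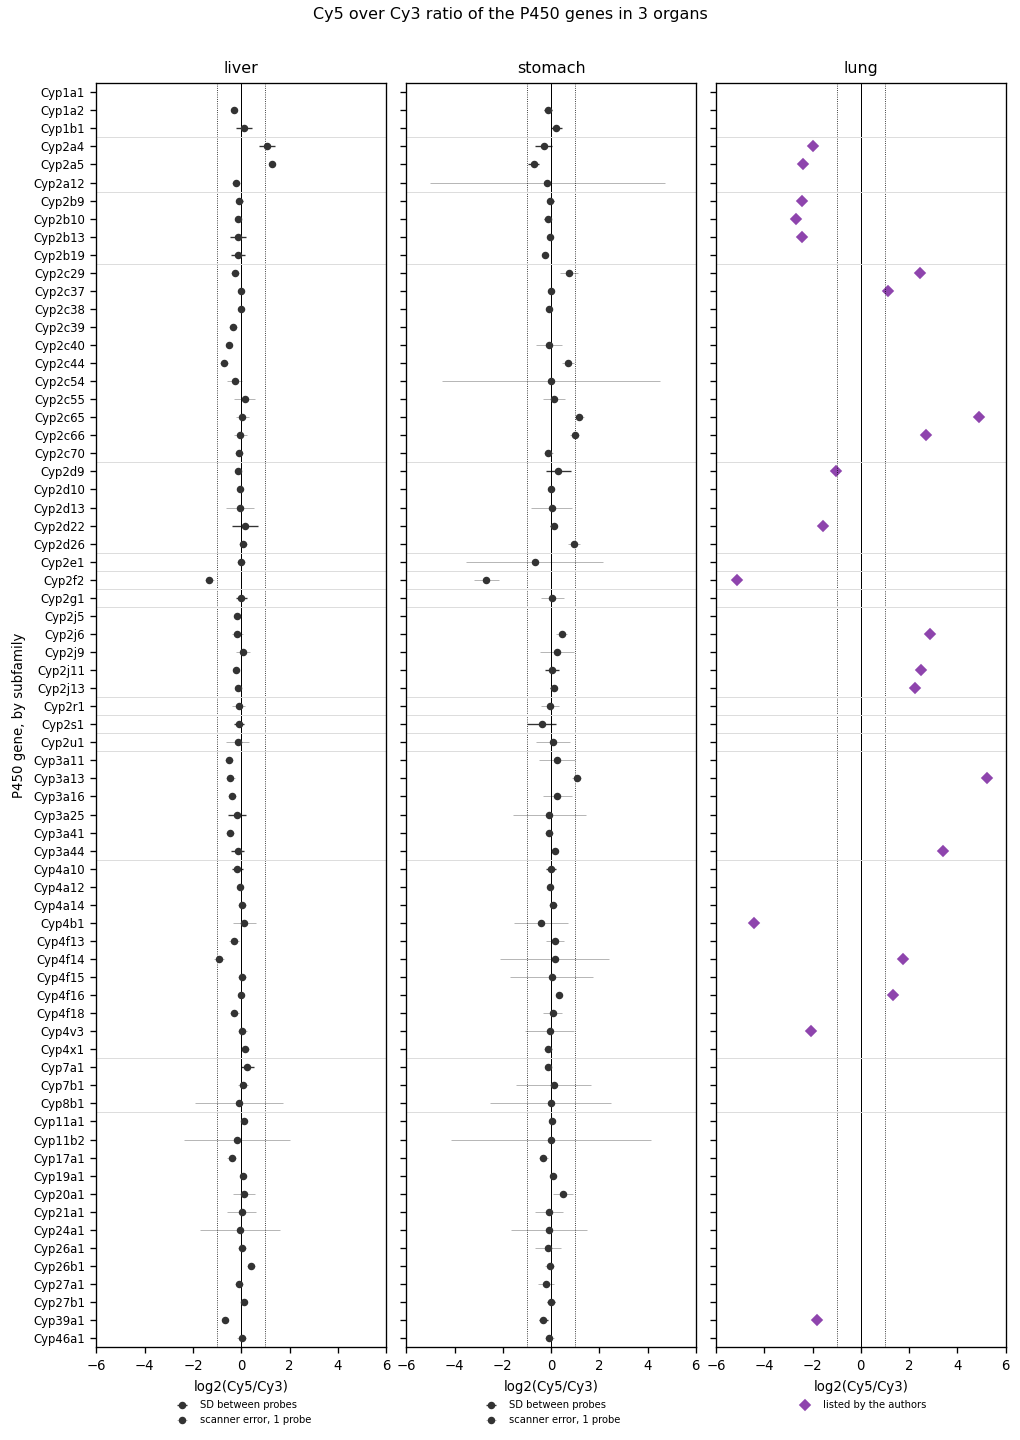
Log2 of Cy5 over Cy3 for the 70 P450 genes in order of subfamily (grey lines), in liver, stomach and lung; dots are this re-analysis of the scanner values with the SD between probes (dark bars) or the scanner error (light bars), diamonds are means of the listed spots in the authors' deposited table, and dotted lines mark 2-fold. Most liver and stomach genes lie near 0, Cyp2a4 and Cyp2a5 stand to the right in liver and to the left in lung, and Cyp2f2 stands to the left in each organ.

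The family Cyp1 oxidises aromatic hydrocarbons and arylamines. Cyp1a2, which also clears caffeine, had intensities of 110.1 in Cy5 and 137 in Cy3 in liver (-0.32, SD 0.03 over 2 probes, scanner error 0.68). In stomach it had 77.6 in Cy5 and 84.4 in Cy3 (-0.12, SD 0.16, scanner error 2.12). Cyp1b1, found mostly outside the liver, was at 0.13 (SD 0.34, scanner error 0.92) in liver and 0.22 (SD 0.24, scanner error 1.33) in stomach. Both genes were dim, and each ratio was smaller than its scanner error. None of the 3 genes was listed in the authors' deposited table in any organ.

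The subfamily Cyp2a held the 2 highest liver ratios. Cyp2a5, the mouse coumarin hydroxylase that also oxidises nicotine and tobacco nitrosamines, had normalized intensities of 8939 in Cy5 and 3734 in Cy3 in liver, a ratio of 1.26 (SD 0.10 over 2 probes) or 2.39-fold. Its relative Cyp2a4, a steroid hydroxylase that is higher in female mouse liver, had 3704 in Cy5 and 1759 in Cy3, a ratio of 1.07 (SD 0.34 over 2 probes) or 2.11-fold. Both ratios were larger than the SD between probes, and they ran from 1.26 to 1.64 for Cyp2a5 and from 1.07 to 1.44 for Cyp2a4 over the processing alternatives. The third member, Cyp2a12, was at -0.22 (scanner error 0.16) in liver, which became 0.16 with median centring.

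The same genes were Cy3-high in the lung pair. The 2 spots of Cyp2a5 in the authors' deposited table had lung ratios of -2.41 and -2.37, with signals of 18100 and 12300 in Cy5 and 95700 and 63600 in Cy3. For the 2 Cyp2a4 spots the authors' deposited table gave -2.38 and -1.57, with 12700 and 3710 in Cy5 and 66100 and 11000 in Cy3. The probes of both genes thus lay on opposite sides of 0 in liver and lung. In stomach both genes were dim: Cyp2a5 had 67.6 in Cy5 and 111 in Cy3 (-0.72, SD 0.22, scanner error 1.41). Cyp2a4 had 79.0 in Cy5 and 96.8 in Cy3 (-0.29, SD 0.35, scanner error 1.43). Neither stomach value passed 2-fold, although the scanner software's ratio was -2.09 for Cyp2a5 and -1.14 for Cyp2a4. Cyp2a12 was at -0.15 in stomach with a scanner error of 4.88, too large to read a direction.

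Cyp2a4 and Cyp2a5 are closely related genes of chromosome 7, and 1 of the 2 Cyp2a4 probes overlaps both Cyp2a5 probes in the array's coordinates. By the coordinates in the array files, whose genome build is not stated, that Cyp2a4 probe, at chromosome 7, 23212199 to 23212258, shares 38 and 20 bases with the 2 Cyp2a5 probes, so its ratios (1.31 in liver, and -2.38 in lung in the authors' deposited table) are not independent of theirs. The other Cyp2a4 probe, placed within 23210886 to 23211951, overlaps neither, and it had 1553 in Cy5 and 871 in Cy3 in liver (0.83, scanner error 0.18) and -1.57 in lung in the authors' deposited table. The array coordinates place the probes of both genes at a single locus, from 23210886 to 23212279, and so do not separate the genes. Signal from 1 gene may reach the probes of the other, this one included. Their start regions, from 250 bases before to 50 after the annotated start (RefSeq, GRCm38.p6, plus strand, Cyp2a4 at chr7:26306942-26307241 and Cyp2a5 at chr7:26835089-26835388), are shown because the pair moved together in liver and in lung. The windows were 97.7% identical, with 294 matched bases, 5 mismatches and 2 gaps. Capitals mark every match, on either strand, to 5 short motifs: TATAAA (the TATA box), GCGTG (the core bound by the aryl hydrocarbon receptor), AGGTCA (the core site of many nuclear receptors), GTTAAT (part of the site of hepatocyte nuclear factor HNF1) and TTTATG (bound by the intestinal factor Cdx2).
Cyp2a4: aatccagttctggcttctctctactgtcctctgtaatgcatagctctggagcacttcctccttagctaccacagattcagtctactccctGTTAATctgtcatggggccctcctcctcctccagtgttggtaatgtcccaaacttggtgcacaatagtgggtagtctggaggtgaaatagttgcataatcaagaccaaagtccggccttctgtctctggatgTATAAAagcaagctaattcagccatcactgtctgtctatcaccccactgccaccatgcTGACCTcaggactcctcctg
Cyp2a5: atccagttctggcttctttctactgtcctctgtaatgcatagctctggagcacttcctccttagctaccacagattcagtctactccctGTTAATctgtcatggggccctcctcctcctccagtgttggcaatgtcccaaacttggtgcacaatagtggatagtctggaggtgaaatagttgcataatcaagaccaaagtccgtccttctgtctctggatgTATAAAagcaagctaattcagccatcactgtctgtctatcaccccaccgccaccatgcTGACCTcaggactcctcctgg

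Both windows held TATAAA (at -28 in Cyp2a4 and -29 in Cyp2a5, counted from the start), GTTAAT (at -160 and -161) and AGGTCA on the minus strand, read as TGACCT, at 30 and 29. Among all 32851 start windows of the same length, 13.6% held TATAAA, 7.10% GTTAAT, 16.3% AGGTCA, 32.4% GCGTG and 11.9% TTTATG. Among the 61 windows of the 52 P450 genes with an entry, the shares were 42.6% for TATAAA, 9.84% for GTTAAT, 26.2% for AGGTCA, 19.7% for GCGTG and 11.5% for TTTATG. No 2 of the marked motifs overlap, and a match describes the letters only.

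Cyp2b genes, whose member Cyp2b10 is the standard target of the constitutive androstane receptor (CAR), were dim in liver and stomach, and 3 of the 4 were listed in lung in the authors' deposited table. In liver the 4 genes lay between -0.07 (Cyp2b9) and -0.14 (Cyp2b19), and in stomach between -0.04 (Cyp2b9) and -0.23 (Cyp2b19), none of them listed. The lung signals of Cyp2b10 in the authors' deposited table were 763 and 850 in Cy5, against 4020 and 6730 in Cy3, for ratios of -2.40 and -2.98. Cyp2b9 spots were listed in the authors' deposited table for lung at -3.04 and -1.88, and Cyp2b13 spots, in the authors' deposited table as well, at -3.02 and -1.82. Each of the 3 genes thus had both of its lung spots Cy3-high, while Cyp2b19, a skin enzyme, was not listed. These genes are close relatives, and signal from 1 of them may reach the probes of the others.

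The subfamily Cyp2c makes epoxides of arachidonic acid and oxidises many drugs, and its members Cyp2c65 and Cyp2c66 are known from the mouse gut. In stomach Cyp2c65 had 4653 in Cy5 and 2072 in Cy3, a ratio of 1.17 (scanner error 0.19) or 2.25-fold. Cyp2c66 had 1503 in Cy5 and 765 in Cy3, a ratio of 0.97 (scanner error 0.18). Both differed between the channels by more than the scanner error, and with median centring the ratios were 2.03 and 1.64. In lung the authors' deposited table listed Cyp2c65 with 31100 in Cy5 and 1060 in Cy3 (4.88, 29.5-fold). The value of Cyp2c66 for lung in the authors' deposited table was 2.69, from 9510 in Cy5 and 1470 in Cy3. In liver both were near the middle, Cyp2c65 at 0.03 (scanner error 0.27) and Cyp2c66 at -0.03 (scanner error 0.26). Each of the pair was read by 1 probe, and whether these probes share signal was not tested.

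The start windows of this pair (RefSeq, GRCm38.p6, plus strand, Cyp2c65 at chr19:39060756-39061055 and Cyp2c66 at chr19:39113648-39113947) are shown because both genes were Cy5-high in stomach and in lung. They were 77.8% identical, and each held TATAAA once, at -162 in Cyp2c65 and -150 in Cyp2c66, and none of the other motifs. Both matches lie much farther from the start than those of Cyp2a4 and Cyp2a5, and they are not named as TATA boxes. Only exact matches are marked.
Cyp2c65: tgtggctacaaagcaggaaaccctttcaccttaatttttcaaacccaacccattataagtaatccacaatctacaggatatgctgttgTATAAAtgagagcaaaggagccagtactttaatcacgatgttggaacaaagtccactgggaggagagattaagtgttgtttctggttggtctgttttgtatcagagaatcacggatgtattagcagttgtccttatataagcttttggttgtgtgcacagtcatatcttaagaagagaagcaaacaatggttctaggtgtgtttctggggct
Cyp2c66: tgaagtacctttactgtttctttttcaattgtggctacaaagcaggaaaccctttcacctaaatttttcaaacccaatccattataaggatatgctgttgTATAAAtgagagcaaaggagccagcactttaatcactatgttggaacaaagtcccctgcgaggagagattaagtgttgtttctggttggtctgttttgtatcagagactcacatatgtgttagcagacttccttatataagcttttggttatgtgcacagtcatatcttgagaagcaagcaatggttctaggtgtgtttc

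Of the other Cyp2c genes, Cyp2c29, an epoxygenase of the liver, had 250 in Cy5 and 148 in Cy3 in stomach (0.75, scanner error 0.37). The authors' deposited table gave Cyp2c29 in lung 1430 in Cy5 and 260 in Cy3 (2.46). In liver it was bright in both channels, 4992 in Cy5 and 5922 in Cy3 (-0.25, scanner error 0.16). Cyp2c44, now named Cyp2c23 and a kidney and liver epoxygenase, was listed in opposite channels: 1297 in Cy5 and 2119 in Cy3 in liver (-0.71, scanner error 0.17), and 371 in Cy5 and 228 in Cy3 in stomach (0.70, scanner error 0.26). Cyp2c40 was listed as Cy3-high in liver with 1760 in Cy5 and 2503 in Cy3 (-0.51, SD 0.04 over 2 probes), and 1 of 2 Cyp2c37 spots appeared in the authors' deposited table for lung at 1.13. The highest liver ratio of the subfamily was 0.15 (Cyp2c55, scanner error 0.44), the lowest stomach ratio was -0.11 (Cyp2c70), and Cyp2c38, Cyp2c39 and Cyp2c54 were listed nowhere. In liver 9 of the 11 genes lay below 0, which became 4 with median centring.

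Cyp2d genes, relatives of the human drug metabolising CYP2D6, were mostly even. Cyp2d26 had 465 in Cy5 and 239 in Cy3 in stomach, a ratio of 0.96 (scanner error 0.25) that was listed as Cy5-high, while in liver it was bright and even at 20871 in Cy5 and 20006 in Cy3 (0.06, scanner error 0.16). The 3 probes of Cyp2d22 disagreed in liver, at 0.73, 0.05 and -0.31 (mean 0.16, SD 0.53), and the first of them, with 207 in Cy5 and 124 in Cy3, was the listed spot. That probe was also the Cyp2d22 spot of the authors' deposited table for lung, with 163 in Cy5 and 483 in Cy3 (-1.57), so no single direction holds for the gene. Cyp2d9 ranged from -0.16 in liver (SD 0.02, the lowest of the subfamily) to 0.30 in stomach (SD 0.50), and the authors' deposited table had 1 of its 2 spots at -1.01 in lung. The 2 Cyp2d9 probes share 27 bases. Cyp2d10 and Cyp2d13 lay between -0.05 and 0.02 in both organs, Cyp2d10 being the lowest of the subfamily in stomach at -0.01.

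Cyp2f2 was Cy3-high in all 3 organs. It encodes the enzyme that activates naphthalene in mouse club cells, and in the liver it marks periportal hepatocytes. In liver it had 4199.8 in Cy5 and 10553 in Cy3, a ratio of -1.33 (scanner error 0.19) or 2.51-fold. In stomach it had 64.4 in Cy5 and 412 in Cy3, a ratio of -2.68 (scanner error 0.50) or 6.40-fold, with the Cy5 spot dim and the scanner software's ratio at -4.35. In the lung lists of the authors' deposited table it had 21800 in Cy5 and 774000 in Cy3 (-5.15, 35.5-fold). Saturation was not read for the lung spots. The liver value was below 2-fold only with median centring, at -0.94, and stayed below 0 under each alternative in liver and stomach. Cyp2f2 was read by 1 probe, at chromosome 7, 24052410 to 24052469 in the array's coordinates, so its 3 values share that probe. Its start window (RefSeq, GRCm38.p6, chr7:27119705-27120004, plus strand) is shown as that of the only P450 gene that was 2-fold or listed in the same channel in each organ, and held AGGTCA at -221 and none of the other motifs.
Cyp2f2: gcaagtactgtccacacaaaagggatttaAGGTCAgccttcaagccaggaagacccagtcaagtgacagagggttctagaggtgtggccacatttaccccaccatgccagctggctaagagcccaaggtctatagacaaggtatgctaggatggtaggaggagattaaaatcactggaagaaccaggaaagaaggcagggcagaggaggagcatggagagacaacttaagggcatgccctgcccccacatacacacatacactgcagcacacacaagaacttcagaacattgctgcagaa

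Cyp2e1, the ethanol and nitrosamine oxidising enzyme of pericentral hepatocytes, was even in liver, with 4543 in Cy5 and 4590 in Cy3 (-0.01, scanner error 0.16), which became 0.36 with median centring. In stomach its Cy5 spot was not well above background, and it had 57.3 in Cy5 and 91.9 in Cy3 (-0.68). The scanner error was 2.83, too large to read a direction or a fold, and the value was -1.53 with an offset of 10 and -3.21 with the scanner software's ratio. Cyp2g1, an enzyme of the olfactory mucosa, was at 0.01 in liver and 0.06 in stomach. Neither was listed in any organ.

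The subfamily Cyp2j makes epoxides of arachidonic acid in heart, kidney and gut. Its 5 liver ratios lay between -0.22 (Cyp2j11) and 0.08 (Cyp2j9), and its 4 measured stomach ratios between 0.03 (Cyp2j11) and 0.45 (Cyp2j6, scanner error 0.23). None of the liver or stomach spots was listed. In lung the authors' deposited table held Cyp2j6 with 3720 in Cy5 and 507 in Cy3 (2.88, 7.35-fold). It also held, in the authors' deposited table for lung, 1 of 2 Cyp2j11 spots at 2.48 and 1 of 3 Cyp2j13 spots at 2.26. The 3 listed genes were Cy5-high, and Cyp2j5 and Cyp2j9 had no lung value.

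Cyp2r1, a vitamin D hydroxylase, Cyp2s1, an enzyme of surface epithelia, and Cyp2u1, a fatty acid hydroxylase, lay between -0.10 and -0.15 in liver. In stomach Cyp2r1 was at -0.04 and Cyp2u1 at 0.08. The 2 Cyp2s1 probes disagreed in stomach: the listed one had 6835 in Cy5 and 11999 in Cy3 (-0.81, scanner error 0.17), and the other, near background, had 66.8 in Cy5 and 64.9 in Cy3 (0.04), for a gene mean of -0.38 (SD 0.60).

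Cyp3a enzymes, which oxidise steroids, bile acids and many drugs, were all below 0 in liver and led by Cyp3a13 in the Cy5 direction elsewhere. The 6 liver ratios had a median of -0.42 and ran from -0.52 to -0.14, but with median centring the median was -0.02 and 3 of the 6 lay above 0. Cyp3a11, the main pregnane X receptor target of mouse liver, had 5157 in Cy5 and 7397 in Cy3 (-0.52, scanner error 0.17). Cyp3a41, higher in female liver and now named Cyp3a41a, had 29334 in Cy5 and 40341 in Cy3 (-0.46, scanner error 0.17), and Cyp3a16, a fetal and neonatal form, 9198 in Cy5 and 12004 in Cy3 (-0.38, scanner error 0.17). None of these reached 2-fold. The 2 Cyp3a25 probes were at 0.10 and -0.44, the second being the listed one. Cyp3a44 had the highest mean of the subfamily, -0.14 (SD 0.27), but its 2 probes differed. The bright one had 12748 in Cy5 and 16061 in Cy3 (-0.33), and the dim one was at 0.05. By the array coordinates both lie beside the Cyp3a41 probe, so they may not read Cyp3a44 apart from Cyp3a41.

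Cyp3a13, the form best known from mouse intestine, differed in direction between organs. In liver it had 4698 in Cy5 and 6400 in Cy3 (-0.45, scanner error 0.17). In stomach it had 1350 in Cy5 and 647 in Cy3, a ratio of 1.06 (scanner error 0.19) or 2.09-fold. The lung entry of the authors' deposited table had 77900 in Cy5 and 2110 in Cy3 (5.22, 37.2-fold), the highest P450 ratio in the table. The liver value shrank to -0.06 with median centring, whereas the stomach value stayed at 1.06 or above under each alternative. The other stomach ratios of the subfamily lay between -0.08 (Cyp3a41) and 0.26 (Cyp3a16), and the authors' deposited table had 1 of 2 Cyp3a44 spots in lung at 3.39 (2200 in Cy5 and 211 in Cy3). That spot is the Cyp3a44 probe that was bright in liver, and it too may not read Cyp3a44 apart from Cyp3a41. The start window of Cyp3a13 (RefSeq, GRCm38.p6, chr5:137921570-137921869, minus strand, written in the direction of the gene), shown as that of the gene with the highest ratio, held none of the 5 motifs.
Cyp3a13: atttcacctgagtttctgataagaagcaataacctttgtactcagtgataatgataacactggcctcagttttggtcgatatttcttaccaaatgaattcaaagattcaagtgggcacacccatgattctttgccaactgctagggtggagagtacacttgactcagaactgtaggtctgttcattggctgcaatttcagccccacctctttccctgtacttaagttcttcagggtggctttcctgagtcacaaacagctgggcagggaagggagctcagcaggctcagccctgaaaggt

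**Figure D3:**
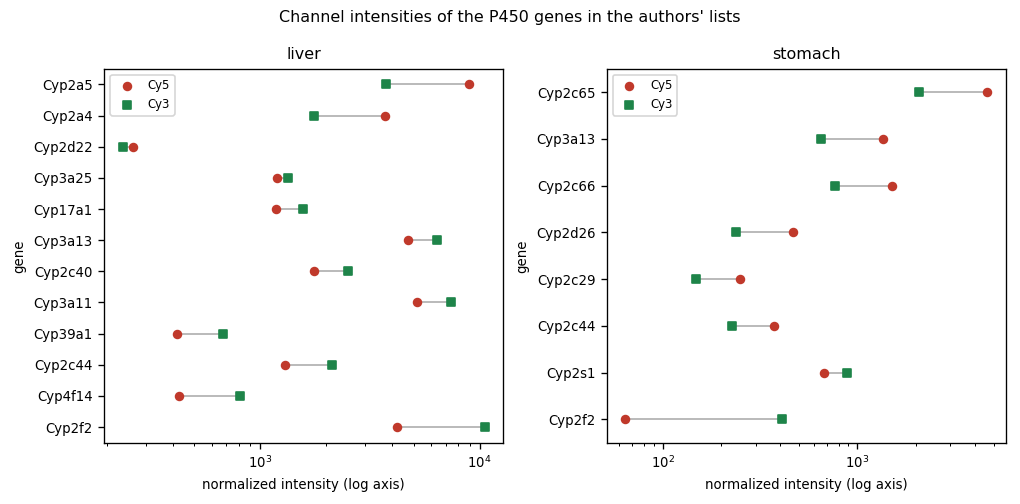
Normalized intensity (log axis) in Cy5 (red dots) and Cy3 (green squares) of the P450 genes with a spot in the authors' deposited liver or stomach lists, ordered by ratio from Cy5-high at the top. In liver Cyp2a5 and Cyp2a4 have the dot on the right and Cyp2f2 has it far to the left, and in stomach 6 genes have the dot on the right.

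Cyp4 enzymes hydroxylate the ends of fatty acids and leukotrienes. Cyp4f14, the mouse leukotriene B hydroxylase, had 427 in Cy5 and 808 in Cy3 in liver (-0.92, scanner error 0.20), just short of 2-fold and listed as Cy3-high. The authors' deposited table had Cyp4f14 Cy5-high in lung, with 466 in Cy5 and 137 in Cy3 (1.76), and in stomach it was dim at 0.15 (scanner error 2.26). Cyp4b1, a lung enzyme that activates furan toxins, had 2490 in Cy5 and 52700 in Cy3 in the authors' deposited table for lung (-4.42, 21.4-fold), beside 0.13 (scanner error 0.48) in liver and -0.41 (scanner error 1.12), the lowest of the family, in stomach. Cyp4v3, a fatty acid hydroxylase whose human relative is mutated in a retinal dystrophy, was listed in lung at -2.08 by the authors' deposited table, and 1 of 2 Cyp4f16 spots there, in the authors' deposited table as well, at 1.35.

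Cyp4f16 was the highest Cyp4 gene in stomach at 0.35 (SD 0.0012 over 2 probes, scanner error 1.96), and Cyp4x1 the highest in liver at 0.16 (scanner error 0.17). The PPAR alpha targets Cyp4a10 and Cyp4a14, which hydroxylate fatty acids in fasting, were at -0.16 (SD 0.23) and 0.03 (scanner error 0.17) in liver and at -0.01 and 0.08 in stomach. Cyp4a12, now named Cyp4a12a and higher in male kidney and liver, was at -0.04 in both organs, and Cyp4f13, Cyp4f15 and Cyp4f18 lay between -0.31 and 0.16 over both organs.

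The bile acid enzymes were near the middle. Cyp7a1, the rate-limiting enzyme of bile acid synthesis, had 239.5 in Cy5 and 200.2 in Cy3 in liver (0.26, SD 0.26 over 2 probes). Cyp7b1, of the alternative route, was at 0.08 (scanner error 0.21), and Cyp8b1, which sets the share of cholic acid, was dim at -0.11 (scanner error 1.82). In stomach the 3 lay between -0.11 (Cyp7a1) and 0.11 (Cyp7b1). Cyp39a1, an oxysterol hydroxylase of the same pathway, was the one listed: it had 418 in Cy5 and 674 in Cy3 in liver (-0.69, SD 0.01 over 2 probes). Both spots of Cyp39a1 were also Cy3-high in lung, at -2.12 and -1.48 in the authors' deposited table, and in stomach it was at -0.32 (SD 0.20, scanner error 0.56). Cyp27a1, the sterol hydroxylase of mitochondria, was at -0.09 in liver and -0.21 in stomach.

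Among the enzymes of hormones and vitamins, Cyp17a1, the androgen making hydroxylase and lyase, had 1178 in Cy5 and 1557 in Cy3 in liver (-0.40, scanner error 0.17) and was listed as Cy3-high, and in stomach it was the lowest of this group at -0.32 (scanner error 0.19). With median centring the 2 values were -0.05 and 0.21. Cyp26b1, which breaks down retinoic acid, had the highest ratio of the group in liver, 769 in Cy5 and 583 in Cy3 (0.40, scanner error 0.18), and was at -0.06 in stomach, while Cyp26a1, with the same reaction, was at 0.04 and -0.12. Cyp20a1, an enzyme without a settled substrate, was the highest in stomach with 209 in Cy5 and 149 in Cy3 (0.49, scanner error 0.41). The steroid enzymes Cyp11a1, Cyp11b2, Cyp19a1 and Cyp21a1, the vitamin D enzymes Cyp24a1 and Cyp27b1 and the brain cholesterol hydroxylase Cyp46a1 lay between -0.19 and 0.12 in both organs, and in lung the authors' deposited table listed none of them.

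**Figure D4:**
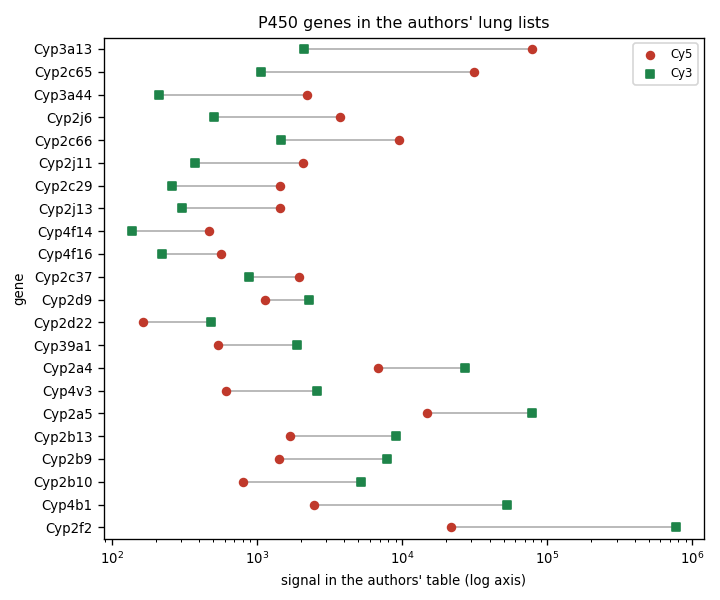
Signals (log axis) in Cy5 (red dots) and Cy3 (green squares) of the 22 P450 genes in the authors' deposited lung lists, as means over the listed spots of a gene, ordered by ratio. Cyp3a13 and Cyp2c65 have the widest gaps in the Cy5 direction, and Cyp2f2 and Cyp4b1 the widest in the Cy3 direction.

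Across organs, 11 P450 genes were 2-fold or listed in at least 2 of the 3. The matching shares of all genes were not computed, so neither this count nor its split by channel is read as a trait of P450 genes. Of these, 5 were in the same channel each time: Cyp2f2 in all 3 organs and Cyp39a1 in liver and lung as Cy3-high, and Cyp2c29, Cyp2c65 and Cyp2c66 in stomach and lung as Cy5-high. The other 6 (Cyp2a4, Cyp2a5, Cyp2c44, Cyp2d22, Cyp3a13 and Cyp4f14) were in opposite channels in at least 1 pair of organs, each time with liver on the other side. That number depends on the processing: by its brightest probe Cyp2d22 in liver was at -0.31, on the side of its lung value. With median centring the liver value of Cyp3a13 was only -0.06. In lung the listed genes of Cyp2c (4), Cyp2j (3) and Cyp3a (2) were Cy5-high, those of Cyp2a (2), Cyp2b (3), Cyp2d (2) and Cyp2f (1) and Cyp39a1 were Cy3-high, and Cyp4 had 2 of each in the authors' deposited table.

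The electron donors of P450 enzymes differed little between the channels in liver and stomach. P450 reductase (Por), the electron donor of the microsomal forms, had 30763 in Cy5 and 34379 in Cy3 in liver (-0.16, scanner error 0.16), and 3185 in Cy5 and 4160.2 in Cy3 in stomach (-0.39, scanner error 0.17). Of the 7 electron donors and related genes, none was 2-fold in liver or stomach (medians 0.05 and 0.17) and none was in the lung lists of the authors' deposited table. Among 24 nuclear receptors and other regulators of these genes, none was 2-fold in liver (median -0.01 over 23), and 1 was 2-fold Cy5-high in stomach (Onecut1, 1.09, with an SD of 1.28 between its 2 probes; median -0.00053). The lowest stomach ratios among them were -0.89 for Ppara, the receptor PPAR alpha (scanner error 0.91), and -0.82 for the liver factor Cebpb (SD 0.48 over 2 probes). In lung the authors' deposited table listed 4 of the 24 as Cy5-high and 7 as Cy3-high, beside 6.78% and 12.3% of all genes. Its lung ratios were 3.36 for Nr1h4, the bile acid receptor FXR, and 1.07 for Nr1i2, the pregnane X receptor, against -2.17 for Nr1i3, the receptor CAR, and -1.76 for Ahr, the aryl hydrocarbon receptor, in the authors' deposited table. In liver and stomach these receptors were at 0.37 and 0.67 (Nr1h4), 0.31 and 0.30 (Nr1i2), -0.04 and -0.36 (Nr1i3) and 0.02 and 0.36 (Ahr).

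Other genes of the same pathways are given by their counts, with medians over the members measured in that organ. The 16 genes of bile acid synthesis and transport had medians of -0.12 in liver and 0.01 in stomach with none 2-fold, and the authors' deposited table for lung held 1 in each direction. Of 14 steroidogenesis genes none was 2-fold (medians -0.04 in liver and 0.0016 in stomach), and 2 were Cy5-high and 1 Cy3-high for lung in the authors' deposited table. Of 14 PPAR alpha targets, the group that holds Cyp4a10 and Cyp4a14, none was 2-fold (medians 0.14 and 0.09), and the authors' deposited table had 4 Cy5-high and 2 Cy3-high in lung.

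The 15 other retinoid genes, which make and carry the substrate of Cyp26a1 and Cyp26b1, had medians of 0.21 in liver and 0.06 in stomach, with 2 Cy5-high and 1 Cy3-high at 2-fold in stomach, and 4 in each direction for lung in the authors' deposited table. Of the 5 other aryl hydrocarbon receptor targets on the design, the 4 measured in liver were all above 0 (median 0.53, led by Gsta1 at 0.95 with a scanner error of 0.18). In stomach their median was 0.49, with the aldehyde dehydrogenase Aldh3a1 Cy3-high at -1.13, and none was listed for lung in the authors' deposited table. Other enzymes of oxidative drug metabolism (17) had medians of 0.03 in liver and -0.03 in stomach, with 2 Cy3-high in stomach, and 3 were Cy5-high and 9 Cy3-high for lung in the authors' deposited table. The P450 enzymes Cyp51, Ptgis and Tbxas1, outside the name rule, had medians of 0.01 and -0.01, and the authors' deposited table gave lung ratios of 2.05, -2.44 and -1.02.

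Liver P450 genes are zoned along the lobule and differ between the sexes, and lists of other such genes are given beside them. The periportal genes other than P450, the zone of Cyp2f2, had a median of -0.31 over 13 genes with 3 above 0 (summed intensity 131974 in Cy5 and 166869 in Cy3), which became 0.08 with median centring. Pericentral genes, the zone of Cyp2e1 and Cyp1a2, had a median of 0.08 over 14 (8999 in Cy5 and 8503 in Cy3), with none 2-fold in either list. The male-biased genes had a median of -0.49 over 13 with 4 at least 2-fold Cy3-high, led by Mup4 with 9417 in Cy5 and 23763 in Cy3 (-1.34), and the summed intensity was 40130.2 in Cy5 and 88020.3 in Cy3. Of the 13 female-biased genes, 1 was 2-fold Cy5-high (Sult2a2, 457 in Cy5 and 105 in Cy3, 2.13) and the median was 0.03 (10703 in Cy5 and 6623 in Cy3). The 2 Sult2a2 probes differed (SD 1.26). Of the P450 genes, Cyp2a4 and Cyp3a41 were named above as higher in female liver. They were at 1.07 and -0.46, which became 1.44 and -0.05 with median centring. Cyp4a12, named above as higher in male kidney and liver, was at -0.04 in liver, which became 0.18 with median centring. The genes named here do not stand for all sex-biased P450 genes, and the part of zone or sex in the P450 ratios was not tested. In stomach the medians were 0.07 for the periportal, 0.01 for the pericentral, -0.02 for the male-biased and -0.11 for the female-biased genes. At 2-fold there, Arg1 of the periportal genes was Cy3-high (-1.25), and of the pericentral genes Axin2 was Cy5-high (1.02) and Glul Cy3-high (-1.21, SD 0.81). Of the sex-biased genes, the male-biased Mup1 (1.04, SD 1.21) and Mup4 (1.21) and the female-biased Prom1 (1.52) were Cy5-high in stomach. For lung the authors' deposited table held 6 periportal genes as Cy5-high and none as Cy3-high, no pericentral gene as Cy5-high and 5 as Cy3-high, 6 male-biased genes as Cy5-high and 2 as Cy3-high, and 1 female-biased gene as Cy5-high and 3 as Cy3-high.

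Markers of cell types were read in the same pairs, since in bulk tissue fewer cells of a type and less RNA per cell cannot be told apart. In liver the 12 measured hepatocyte markers had a median of -0.24, which became 0.16 with median centring, and summed to 302369 in Cy5 and 394674 in Cy3, with Rbp4 2-fold Cy3-high. In stomach 7 of 12 gastric gland markers were 2-fold Cy3-high and 1 Cy5-high (median -2.27, sums 123235 in Cy5 and 431363 in Cy3), and 10 of 13 squamous markers were Cy3-high and 1 Cy5-high (median -1.62, sums 6606 in Cy5 and 35551 in Cy3). The pancreatic markers Clps, Pnliprp2 and Amy2 were also 2-fold Cy3-high there, 3 of 8 measured, and 1 was Cy5-high (sums 20169.5 in Cy5 and 122300 in Cy3). By contrast 5 of 11 intestinal markers were 2-fold Cy5-high and none Cy3-high in stomach (median 0.58, sums 80453 in Cy5 and 13620 in Cy3), among them Vil1 with 3527 in Cy5 and 866 in Cy3 (2.03). The gut genes Cyp2c65, Cyp2c66 and Cyp3a13 were Cy5-high in the same array, and the part of the intestinal markers in this was not tested.

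In lung the authors' deposited table held 10 of 11 alveolar markers (Sftpa1 at -4.29, Ager at -3.95) and 6 of 8 club and ciliated cell markers, of which Cyp2f2 is itself one, as Cy3-high, and none of either list as Cy5-high. Foxj1, a marker of ciliated cells, was at -3.62 there in the authors' deposited table. It held 5 of 12 intestinal markers as Cy5-high, with Vil1 at 5.07 and Slc9a3 at 5.48 in the authors' deposited table, and none as Cy3-high. The lung enzymes Cyp2f2, Cyp4b1, Cyp2b10 and Cyp2a5 lay on the side of the airway and alveolar markers, and Cyp3a13, Cyp2c65, Cyp2c66 and Cyp2j6 on the side of the intestinal ones, and the part of cell content in this was not tested. The other marker lists are given by their medians. Macrophage markers had medians of -0.07 in liver and 0.04 in stomach, fat cell markers 0.01 and -0.29 with 2 Cy3-high in stomach, alveolar markers -0.01 and 0.04, and club and ciliated markers 0.01 and -0.37. In liver the medians were 0.09 for gastric, 0.01 for squamous, 0.21 for intestinal and 0.01 for pancreatic markers, and in stomach -0.09 for hepatocyte markers, 3 of which were 2-fold Cy3-high. In stomach 1 macrophage and 1 alveolar marker were 2-fold Cy5-high. For lung the authors' deposited table held 4 hepatocyte markers as Cy5-high and 3 as Cy3-high, 2 gastric as Cy5-high and 1 as Cy3-high, 5 squamous as Cy5-high and 1 as Cy3-high, and 1 pancreatic as Cy5-high. Macrophage markers were split 1 and 1 and fat cell markers 2 and 2 in the authors' deposited table.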

How the data were processed

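Two-colour Agilent arrays of 3 samples were used, 1 array per organ. Per the labels' protocols, total RNA was amplified and labelled with a dye, and Agilent Feature Extraction 8.5.1.1 read the arrays, per the submitters' processing notes. The deposited intensity columns of the liver and stomach arrays hold, per the file headers, raw spot and background intensities and processed signals in each channel. The deposited log10 ratio is of red (Cy5) over green (Cy3), and has an error and a deposited p-value from the scanner software's model, per the file headers. The authors' deposited table holds 6 lists of spots with a log10 ratio and signals; for liver and stomach the ratios equal the scanner's, and the lung lists start at 2-fold. Scanner values of the lung array were not used here. Lung spots were named by spot number on the assumption that the lung array had the design of the other arrays, on which every lung gene name rests: of 834 genes with several listed lung spots, 97.0% had them in 1 channel. The signal columns change order within the lung Cy3-high list, and each row's signals were taken as the pair whose log10 ratio gives the listed value (tolerance 0.006), which 2 of its spots lacked.

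Backgrounds were corrected with normexp (offset 50, which pulls dim spots towards 0) and ratios normalized by loess within each array in limma 3.58.1 (R 4.3.3), giving control spots weight 0. This step was tested on simulated data in which only brighter spots were changed. Such data do not cover dim spots or the choice between loess and median centring. Outlier spots and probes not well above background in at least 1 channel, or saturated in both, were left out, and probes were averaged per gene. Later steps used Python 3.11.15, pandas 2.3.3 and Biopython 1.88. Genes were counted at 2-fold, and 6 alternatives per array were tried (the closing section gives their effect). No test was made, since each group held 1 sample. The precision is limited by the number of arrays. No column of values lacked a sample.

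By accession, 66 of the 70 genes matched RefSeq (GRCm38.p6, used for names and start windows only), and 3 have a new symbol. Another 5 probes whose accession is now a P450 gene had other names on the design and were not members. Every P450 gene at least 2-fold on the liver or stomach array or in a list was named, as were the highest and lowest of each subfamily. The design took the direction as unsettled. The P450 genes as a group and the gene lists (pathways and cell type markers) were chosen with earlier results of these data known, while membership followed the name alone.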

Additional observations from a re-analysis of the deposited data

Results flagged for a closer look

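In 6 P450 genes the ratio lay in opposite directions in the organs where the gene was 2-fold or listed. How often this holds over all genes was not computed. Each organ had 1 array, so none of these differences was tested, and the lung values come from the authors' deposited table. Cyp2a4 was at 1.07 in liver and -1.97 in lung, and Cyp2a5 at 1.26 in liver and -2.39 in lung, as log2 of Cy5 over Cy3 averaged over the probes or listed spots in the authors' deposited table. Of the Cyp2a4 probes 1 overlaps the Cyp2a5 probes, and the other, with 0.83 in liver and -1.57 in lung in the authors' deposited table, does not. That other probe is placed at the same locus, so signal from Cyp2a5 may still reach it. Cyp3a13 was at -0.45 in liver, 1.06 in stomach and 5.22 in lung in the authors' deposited table. Its liver value was only -0.06 with median centring. Cyp4f14 was at -0.92 in liver and 1.76 in lung in the authors' deposited table. Cyp2c44 was at -0.71 in liver and 0.70 in stomach. Cyp2d22 was at 0.16 in liver, where its probes disagreed (SD 0.53), and -1.57 in lung from 1 of 3 spots in the authors' deposited table. By its brightest probe Cyp2d22 in liver was at -0.31, on the same side as in lung.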

How the results depend on the processing

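Over the 6 alternatives on each scanner array and the 2 for the lung lists, 32 of 40 values of the main counts and medians stayed within 1.5 times or within the spread between probes, and 8 moved. The 2-fold Cy3-high count in liver, 1 in the main setting, was 2 with the scanner software's ratio (Cyp4f14 joined Cyp2f2) and 0 with median centring. The 2-fold Cy5-high count in stomach, 2 in the main setting, was 5 with the scanner software's ratio and 5 with median centring. The 2-fold Cy3-high count in stomach, 1 in the main setting, was 3 with a normexp offset of 10, 5 with the scanner software's ratio and 2 with median centring. The causes were not tested. Counting spots in place of genes gave 17 Cy3-high P450 entries in lung in place of 11, since several genes had 2 spots. The whole lung Cy3-high list held 4064 of the 41534 gene spots. Over all genes, the liver counts were 551 Cy5-high and 435 Cy3-high with the scanner software's ratio, beside 40 and 18 in the main setting. In stomach they were 1107 and 1064 with the scanner software's ratio, beside 224 and 364. With median centring the counts over all genes were 112 and 7 in liver and 1024 and 239 in stomach. With an offset of 10 those of stomach were 444 and 596. The P450 counts are therefore not read apart from these shifts. Of the single genes and subfamily medians, 264 values were within their error of the main one and 47 were not, and none of the genes past 2-fold changed sign. The P450 median in liver, -0.09, was 0.05 with median centring, and that in stomach, -0.01, was 0.07 with the scanner software's ratio and 0.05 with median centring. Of the listed genes below 2-fold, Cyp2d22 in liver was at -0.31 by its brightest probe, and Cyp3a25 in liver was at 0.15 with median centring and 0.10 by its brightest probe. Dim spots limit the stomach values, where 84 of 102 P450 probes were well above background in Cy3. No paired analysis was possible because each organ has 1 array and no test was made.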
